A study of Mus musculus with 7 samples.

Results

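The miR-15/16 family was followed in mouse astrocytoma and normal neocortex through 6 probes, mmu-miR-15a, mmu-miR-15b, mmu-miR-16, mmu-miR-195, mmu-miR-322 and mmu-miR-497 (written without the species prefix from here on), taken by exact name from the 566 mouse miRNA probes of a NanoString nCounter panel. The 4 tumors arose in mice of strain CD1 with the transgene hGFAP-HaV12-Ras, in which an activated Ras oncogene is driven by the human GFAP promoter, active in astrocytes and in neural progenitors. Tumors 1, 2, 3 and 4 were taken at postnatal days 65, 104, 125 and 134. The 3 neocortex samples, all from postnatal day 60, held layers II to IV and came from wild-type mice of the same strain. Tumor 2 and neocortex 2 were female and the other 5 samples were male. The brain region of each tumor is not given in the sources used here, and both kinds of sample are mixtures of cells, so fewer cells of a type and less of a miRNA per cell cannot be told apart. The groups also differ in age and in the tissue dissected, which cannot be told apart from the tumor itself.

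MicroRNAs are short RNAs that pair with messenger RNAs through their seed (bases 2 to 8 from the 5′ end) and lower the output of those messages. Members of the miR-15/16 family share a seed and repress many of the same messages, among them those of D-type and E-type cyclins and of Cdk6, which carry cells into the DNA synthesis phase, and that of the survival factor Bcl2. They are therefore regarded as brakes on the cell cycle. In human chronic lymphocytic leukemia the locus of miR-15a and miR-16 is often deleted. The comparison of tumor with neocortex asks whether these brakes differ between an astrocytic tumor and adult gray matter, where most neurons no longer divide.

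The mature sequences are shown because the shared seed defines the family and the remaining bases decide how far its members can be told apart by a probe. The deposited table names neither an arm nor a probe sequence, so each name was matched to the RefSeq mature form (build GRCm38.p6) from that hairpin that holds the family seed, given in capitals.
miR-15a: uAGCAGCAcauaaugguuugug
miR-15b: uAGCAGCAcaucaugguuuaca
miR-16: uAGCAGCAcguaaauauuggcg
miR-195: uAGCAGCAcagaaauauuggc
miR-322: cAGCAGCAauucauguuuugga
miR-497: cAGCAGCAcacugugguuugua

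All 6 have the seed AGCAGCA, which 10 of the 1679 mature mouse miRNA names in the RefSeq table carry. Outside the seed they differ. miR-15a and miR-15b were identical at 18 of 22 bases and differed by A12C, G20A, U21C and G22A, with the miR-15a base first and positions counted from the 5′ end. miR-16 and miR-195 were identical at 19 of the 21 bases compared and differed only by G10A and U11G, with the miR-16 base first. Whether the probes for such close relatives cross-react was not tested.

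The genes lie in pairs. Mir15a, with its mature form at chr14:61632075-61632096 on the minus strand, and Mir16-1 start 139 bases apart within Dleu2, a long noncoding RNA gene. Mir15b, at chr3:69009775-69009796 on the plus strand, and Mir16-2 start 143 bases apart within Smc4, which encodes a condensin subunit. Mir16-1 and Mir16-2 give the same mature miR-16, so the miR-16 probe cannot separate the 2 loci. Mir497, at chr11:70234730-70234751, and Mir195a, at chr11:70235062-70235082, start 332 bases apart on the plus strand. Mir322, the rodent counterpart of human miR-424, lies at chrX:53054306-53054327 on the minus strand, 279 bases from Mir503, which has a close but different seed. These distances are between starts of the mature forms, in RefSeq coordinates of GRCm38.p6.

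Values are the authors' normalized log2 values. Below a cutoff of its own sample a probe was listed at 0, and that cutoff averaged 3.44 ± 0.33 in tumor (SD, n = 4) and 4.91 ± 0.28 in neocortex (SD, n = 3). The low values were whole multiples of a fixed amount in each sample, so counts could be recovered: the miRNA probes summed to 117610 to 208072 counts in the tumors and to 23578 to 60765 in neocortex. Of the 566 miRNA probes 283 had a mean high enough to be tested. Of these, 50 (17.7%) passed an adjusted p of 0.05 in limma, 23 higher (8.13%) and 27 lower (9.54%) in tumor. Some of those called higher, among them miR-196a, miR-2132 and miR-762, were listed at 0 in every neocortex sample. The tumor means of these named miRNAs, 4.90, 5.035 and 5.055, lay within the range of the neocortex cutoffs, 4.65 to 5.21. The size of such changes therefore rests on the listing at 0. Of 8 neuronal miRNAs 0 were called in limma (before adjustment, 0 higher and 2 lower at 0.05), but all 8 had changes below 0, with a median of -0.57, and their summed linear level was 6751 to 9690 in tumor against 9224 to 16401 in neocortex. The 3 oligodendrocyte miRNAs were called lower, with sums of 1004 to 2323 in tumor and 5985 to 7702 in neocortex. Of 5 miRNAs listed for astrocytes miR-9 alone was called, higher, and 4 had changes above 0 with a median of 0.66. Their sums, 32898 to 34406 in tumor and 21144 to 22739 in neocortex, did not overlap. miR-9 is not confined to astrocytes. Of the others listed, miR-29a, miR-29b and miR-29c changed by 0.66, 0.70 and -0.27 and were not called. Of 6 tested leukocyte and microglia miRNAs 2 were called higher, miR-142-3p and miR-146a. In neocortex miR-146a was listed at 0 in every sample and miR-142-3p in some, with a mean of 1.64 ± 2.85 (SD, n = 3). The leukocyte and microglia list had 4 changes above 0 and a median of 0.57. It summed to 688 to 1239 in tumor and 717 to 923 in neocortex. The part of these cell types in the values of the family was not tested.

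On the deposited scale miR-15b, whose gene is the partner of Mir16-2 within Smc4, was the only family member called higher in tumor. That call depended on the scaling and on single samples, as given below. Of the 5 members with enough signal to test, 1 was called higher and 0 lower in limma (before adjustment, 1 and 1 at 0.05). That share is near the 17.7% of all tested miRNAs and is not a result about the family. The 5 changes had a median of 0.14 on the log2 scale, against 0.03 for all tested miRNAs, and 3 lay above 0 and 2 below. All 5 were above 0 in all 7 samples. Among the 197 miRNAs of that kind the median change was -0.29, with 18 called higher and 41 lower in limma. Groups did not overlap for 2 of the 5, as for 32.9% of all tested miRNAs. miR-195 was too low to test.

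miR-15b had deposited log2 values of 8.46, 8.41, 8.61 and 7.93 in tumors 1 to 4, against 7.58, 6.98 and 7.57 in neocortex 1 to 3. Every tumor lay above every neocortex sample, and tumor 4, the oldest, was closest to them. The values rest on 366 to 467 recovered counts in the tumors and on 107, 43 and 41 in neocortex 1, 2 and 3. A count of 41 has an exact 95% Poisson interval of 29.4 to 55.6, which covers counting error only. The mean was 8.35 ± 0.29 in tumor (SD, n = 4) and 7.38 ± 0.34 in neocortex (SD, n = 3). The log2 change of 0.98 (SE 0.25, 95% interval 0.37 to 1.59), or 1.97-fold, had an adjusted p of 0.045 in limma with Benjamini-Hochberg adjustment.

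That call was close to the threshold. It held without neocortex 1 or tumor 4, at adjusted p = 0.041 and 0.043 in limma, and was lost without neocortex 2, neocortex 3, tumor 1, tumor 2 or tumor 3, at 0.087, 0.070, 0.10, 0.10 and 0.12, where the change stayed between 0.78 and 1.07. With sex as a covariate the adjusted p was 0.069 in limma, and over all 20 alternatives tried it ran from 0.00066 to 0.98.

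miR-15a, from the Dleu2 locus, did not pass the test. It had log2 values of 8.86, 8.92, 8.77 and 8.71 in tumors 1 to 4 and 9.03, 8.39 and 8.62 in neocortex 1 to 3. All 4 tumors lay inside the neocortex range, and they varied less among themselves. The means were 8.82 ± 0.09 in tumor (SD, n = 4) and 8.68 ± 0.32 in neocortex (SD, n = 3). The change of 0.14 (SE 0.20) had a limma adjusted p of 0.63 and a 95% interval of -0.35 to 0.62, so changes of either sign within these bounds are not excluded.

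miR-16, the member with the most counts, did not pass the test either. It had log2 values of 10.78, 10.51, 10.96 and 10.93 in tumors 1 to 4 and 11.52, 10.93 and 10.97 in neocortex 1 to 3. Neocortex 1 stood above all other samples, while neocortex 2 and 3 lay close to tumors 3 and 4. The means were 10.80 ± 0.21 in tumor (SD, n = 4) and 11.14 ± 0.33 in neocortex (SD, n = 3), a change of -0.34 (SE 0.22, 95% interval -0.88 to 0.19) with a limma adjusted p of 0.31. Without neocortex 1 the change was -0.16 (adjusted p = 0.50 in limma, range 0.013 to 0.58 over its 20 alternatives). miR-16 is also abundant in red blood cells. Of the 3 red blood cell markers miR-451, miR-144 and miR-486, 0 were called in limma (0 before adjustment at 0.05), all 3 had changes above 0 with a median of 0.71, and their summed linear level was 396 to 675 in tumor and 268 to 366 in neocortex. miR-486 had log2 values of 5.36 and 5.14 in neocortex 1 and 2, 4.85 to 5.07 in the tumors, and was listed at 0 in neocortex 3. Its change above 0 rests on that 0, as the cutoff of neocortex 3, 5.21, lay above all its tumor values. None of the 3 markers was at 0 in all samples, and their part in the miR-16 values was not tested.

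**Figure D1:**
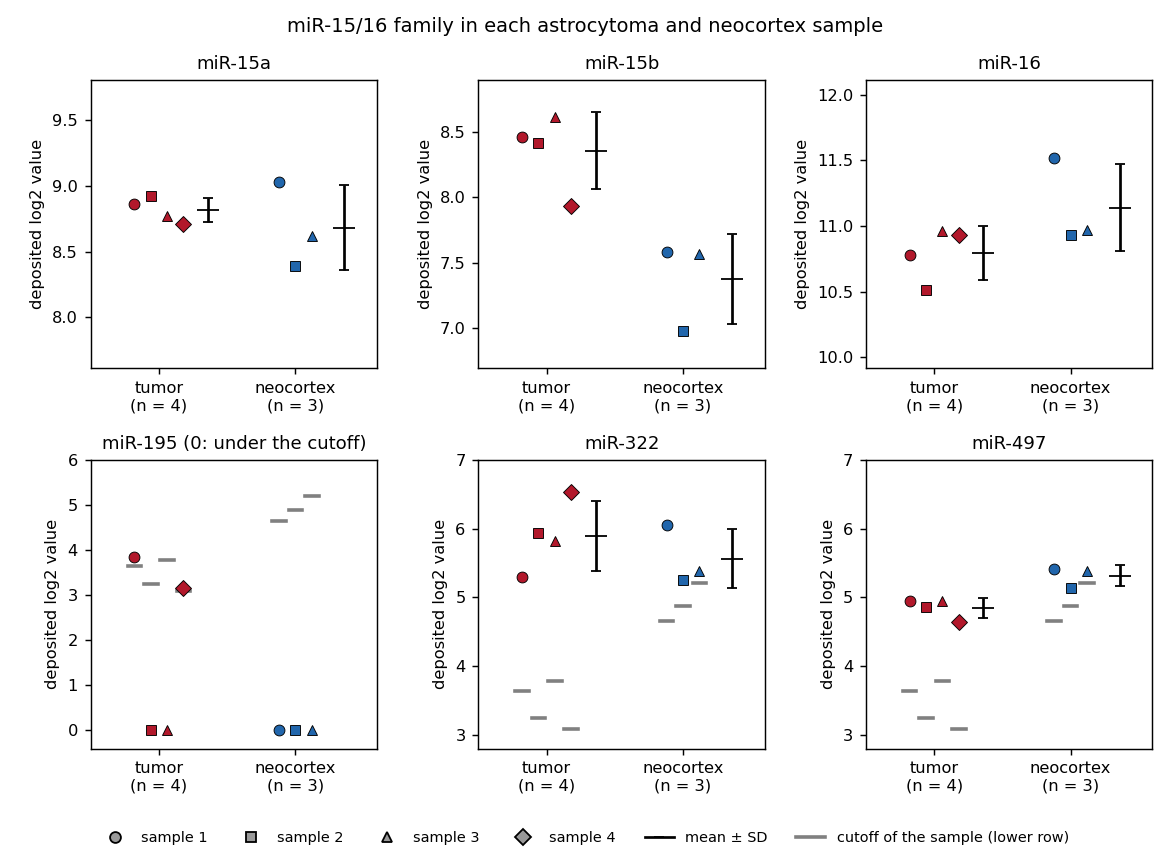
Deposited log2 values of the 6 members in each sample, with tumor on the left and neocortex on the right of each panel. Black bars give the mean ± SD, marker shapes the sample number, and gray ticks in the lower row the cutoff of each sample; the vertical axes differ between panels. miR-15b lies at 7.93 to 8.61 in tumor and 6.98 to 7.58 in neocortex, while miR-15a and miR-16 overlap between the groups.

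Setting members against each other inside a sample removes the scaling, since any factor applied to the whole sample cancels. 3 such differences were tested, with Benjamini-Hochberg adjustment over the 3. miR-15b minus its locus partner miR-16 was -2.32, -2.10, -2.35 and -3.0 on the log2 scale in tumors 1 to 4, and -3.94, -3.95 and -3.40 in neocortex 1 to 3. Every tumor lay above every neocortex sample, so there was more miR-15b for a given amount of miR-16 in tumor. The difference averaged -2.44 ± 0.39 in tumor (SD, n = 4) and -3.76 ± 0.31 in neocortex (SD, n = 3), a gap of 1.32 or 2.50-fold. The 2-sided exact permutation p was 0.0286, the smallest that the 35 arrangements of 7 samples allow, and 0.0429 after adjustment.

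miR-15b also lay nearer to its paralog miR-15a in tumor. Their difference was -0.40, -0.51, -0.16 and -0.78 in tumors 1 to 4, and -1.45, -1.41 and -1.05 in neocortex 1 to 3. The groups did not overlap. The mean of -0.46 ± 0.26 in tumor (SD, n = 4) exceeded that of -1.30 ± 0.22 in neocortex (SD, n = 3) by 0.84, or 1.79-fold (2-sided exact permutation p = 0.0286, 0.0429 after adjustment). When 1 sample is left out, the exact permutation test cannot give a p under 0.0667 with 6 samples and so cannot pass; for these 2 differences it gave 0.0667 to 0.10. The gap itself then lay between 0.74 and 0.97 for miR-15b against miR-15a and between 1.21 and 1.51 for miR-15b against miR-16.

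miR-15a minus miR-16, the pair from Dleu2, did not pass. It was -1.92, -1.59, -2.19 and -2.22 in tumors 1 to 4, and -2.49, -2.54 and -2.35 in neocortex 1 to 3. All tumors lay above all neocortex samples here too, with tumors 3 and 4 close to neocortex 3. The gap of 0.48 had a 2-sided exact permutation p of 0.0857, since 3 of the 35 arrangements, the labelled one included, gave a difference at least as large. Because miR-16 comes from both loci, neither pair isolates 1 locus. The partner pairs of miR-497 with miR-195 and of miR-503 with miR-322 were not tested, since miR-195 and miR-503 were listed at 0 in most samples.

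**Figure D2:**
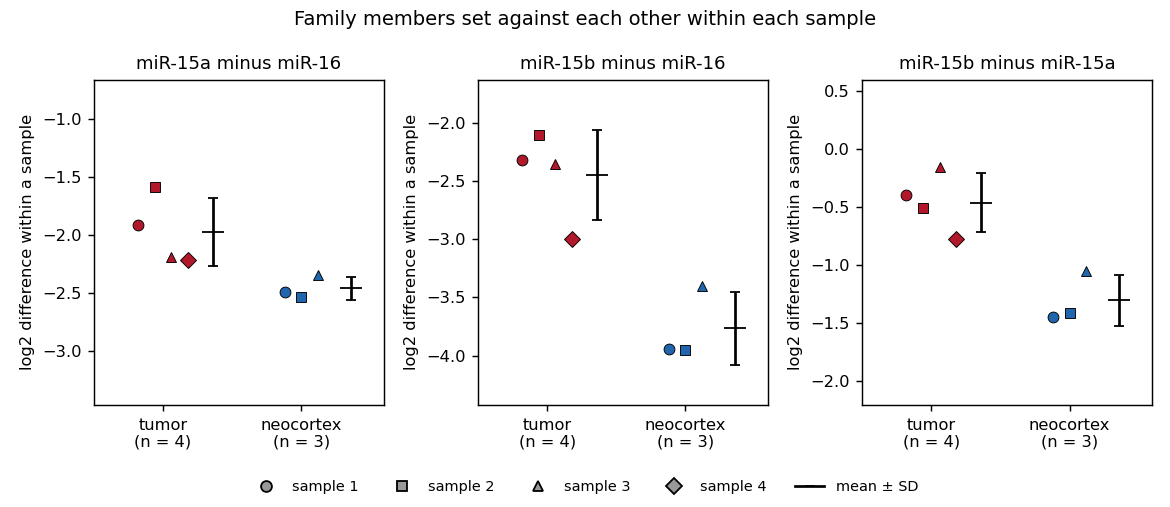
Log2 difference between members of the family within each sample, with tumor left of neocortex in each panel, black bars giving the mean ± SD and marker shapes the sample number. miR-15b minus miR-16 averages -2.44 in tumor and -3.76 in neocortex, and miR-15b minus miR-15a -0.46 in tumor and -1.30 in neocortex, with no overlap between groups.

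The share of each member in the summed family signal describes the same shift. miR-15b made up 8.90% to 14.3% of it in the tumors and 5.08% to 7.11% in neocortex. miR-16 made up 61.5% to 71.2% in the tumors and 75.1% to 78.5% in neocortex, and miR-15a 15.0% to 20.4% in tumor and 13.5% to 14.7% in neocortex. Probes differ in efficiency, so these shares compare samples and not the true abundance of one miRNA with another. The 6 probes together held 2.14% to 2.63% of the miRNA signal in the tumors and 2.28% to 3.46% in neocortex. These ranges overlapped, with the highest share in neocortex 1.

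miR-322 and miR-497 were measured near the highest negative control of the neocortex samples, the only one listed above the cutoff there. The negative-control probe D, which matches no mouse RNA, had log2 values of 3.75, 4.17 and 3.48 in tumors 1, 3 and 4 and was listed at 0 in tumor 2, against 5.42, 5.73 and 5.80 in neocortex 1 to 3. miR-497 had 4.94, 4.86, 4.95 and 4.64 in tumors 1 to 4, and 5.42, 5.14 and 5.38 in neocortex 1 to 3. In every tumor miR-497 exceeded probe D, and in no neocortex sample did it do so. Another negative control was above the cutoff in tumors 1 and 2 and was not compared. The recovered counts of miR-497 were 32, 40, 36 and 47 in the tumors and 24, 12 and 9 in neocortex. A count of 9 has an exact 95% Poisson interval of 4.12 to 17.1.

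On the deposited scale miR-497 was lower in every tumor than in any neocortex sample, with means of 4.85 ± 0.14 in tumor (SD, n = 4) and 5.31 ± 0.15 in neocortex (SD, n = 3). The change of -0.47 (SE 0.17) had an unadjusted p of 0.031 and an adjusted p of 0.12 in limma and did not pass. It passed with every miRNA probe tested (adjusted p = 0.041 in limma; 0.0040 to 0.54 over its 19 alternatives). As the neocortex values do not exceed probe D, the highest negative control there, they are taken as upper bounds on miR-497, and no direction can be read from them. With the mean of the negative controls subtracted the change was -0.32 (adjusted p = 0.25 in limma).

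miR-322 had log2 values of 5.30, 5.93, 5.82 and 6.54 in tumors 1 to 4, the highest in the oldest tumor, and 6.05, 5.26 and 5.38 in neocortex 1 to 3. Only neocortex 1 exceeded its probe D, and all 4 tumors did. The recovered counts were 41, 84, 66 and 175 in the tumors and 37, 13 and 9 in neocortex. The means were 5.90 ± 0.51 in tumor (SD, n = 4) and 5.56 ± 0.43 in neocortex (SD, n = 3). The change of 0.33 (SE 0.35, 95% interval -0.51 to 1.18) did not pass, at a limma adjusted p of 0.51. It ran from 0.12 without tumor 4 to 0.58 without neocortex 1, and was 0.18 without neocortex 2 and 0.53 without tumor 1. As neocortex 2 and 3 did not exceed probe D, their values are taken as upper bounds and the size of the change is not exact. Among the tumors the spread of miR-322 was wider than that of any other tested member.

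miR-195 was listed at 0 in all neocortex samples and in tumors 2 and 3. It had log2 values of 3.85 in tumor 1 and 3.17 in tumor 4, from 15 and 17 recovered counts where the lowest listed counts were 13 and 16. Both values lie under the cutoffs of all 3 neocortex samples, 4.65, 4.88 and 5.21, so a neocortex level as high as in these tumors would have been listed at 0. A neocortex level of miR-195 above these cutoffs would have been listed, and none was. Differences under them were not detectable at this depth. The vessel markers miR-126-3p, miR-126-5p, miR-143 and miR-145, miRNAs of endothelial and mural cells, summed to a linear level of 1633 to 3246 in tumor and 1202 to 1538 in neocortex, with 0 of 4 called in limma (before adjustment, 1 higher and 0 lower at 0.05), a median change of 0.45 and none at 0 in all samples.

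**Figure D3:**
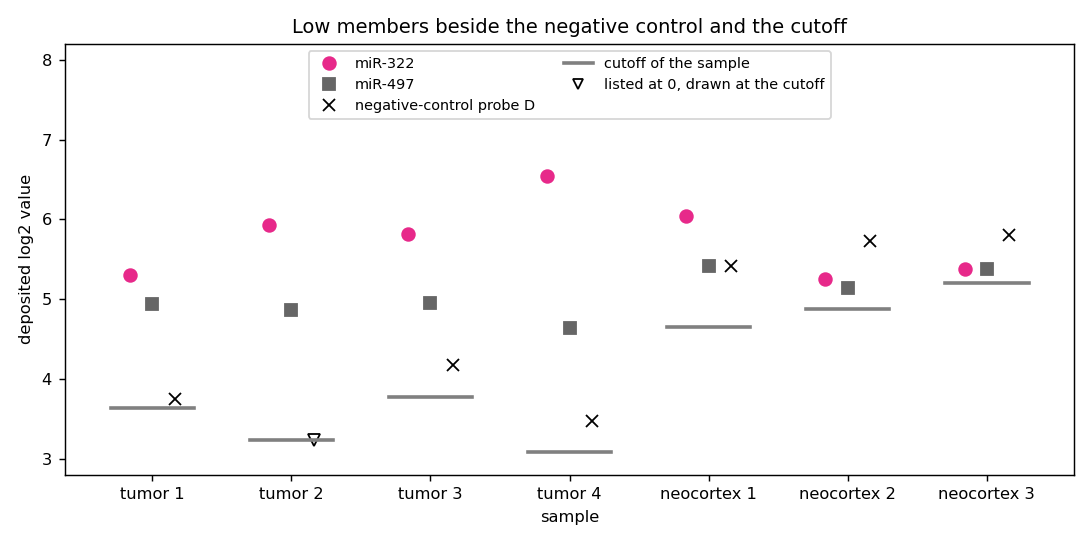
Deposited log2 values of miR-322, miR-497 and negative-control probe D in each sample, tumors on the left, with a gray line at the cutoff of each sample. miR-497 lies above the negative control in the 4 tumors and at or below it in the 3 neocortex samples.

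Directions of single members depended on the scaling. On the positive-control probes the median of all tested miRNAs lay at 1.77, and on the housekeeping mRNA probes at -0.95. miR-15b changed by 2.69 on the first and by 0.016 on the second, where it was not called (adjusted p = 0.98 in limma). Relative to the median of all tested miRNAs in the same fit it lay 0.94 higher with the values as deposited, 0.91 on the positive controls and 0.97 on the housekeeping probes. miR-16 changed by 1.37 and -1.30 on these scales and miR-497 by 1.25 and -1.43, each called on both with opposite signs, and relative to the median they lay at -0.41 and -0.35 and at -0.53 and -0.48. These distances depend on the miRNAs tested. Among only those above 0 in all 7 samples, as deposited, miR-15b lay 1.27 above the median, miR-16 at -0.05 and miR-497 at -0.17. miR-15a changed by 1.85, a call, and -0.82, and miR-322 by 2.05, a call, and -0.63. Such scalings leave the distances between members as they are, by construction. Quantile normalization does not, and there miR-15b changed by 1.09, a call, miR-15a by 0.45 and miR-16 by -0.18.

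**Figure D4:**
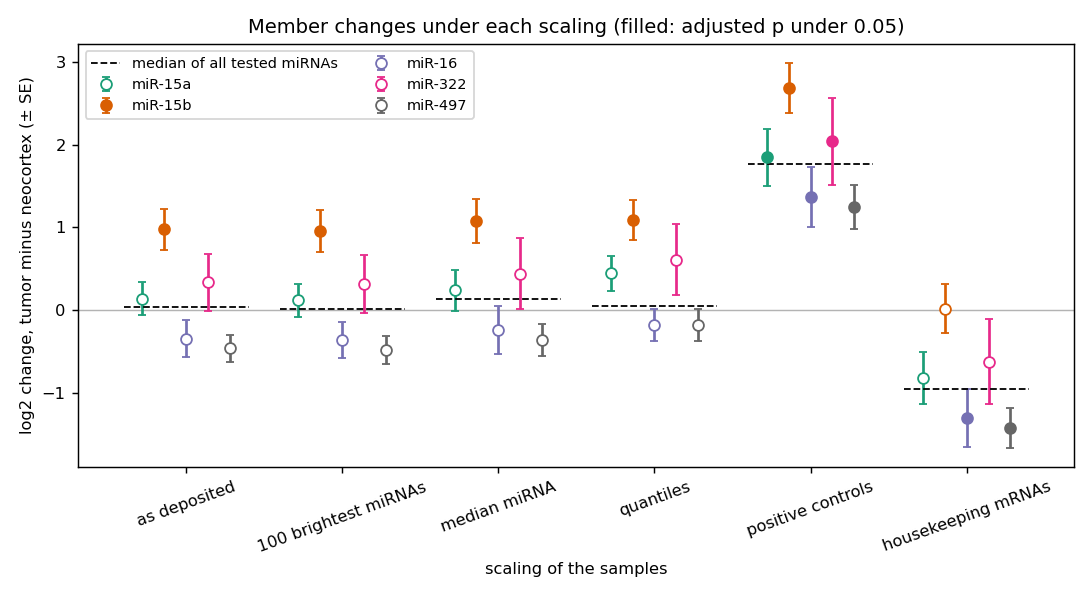
Log2 change of the 5 tested members, tumor minus neocortex, under 6 scalings of the samples. Points give the fitted change ± SE, filled where the adjusted p was under 0.05, and dashed lines the median of all tested miRNAs. miR-15b is the highest member under each scaling, at 0.98 as deposited, 2.69 on the positive controls and 0.016 on the housekeeping mRNAs.

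Relatives of the family on the panel gave no call. They were 10 probes for miRNAs with a related seed or from the Mir322 cluster, of which 3 could be tested, with 0 called in limma (0 before adjustment at 0.05). Their seeds are shown because miR-103 and miR-107 carry the family's motif shifted by a base, and miR-503 differs at its last seed base.
miR-503: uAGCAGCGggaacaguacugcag
miR-103: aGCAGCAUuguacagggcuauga
miR-107: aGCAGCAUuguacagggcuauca

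miR-103, which with miR-107 is known for lowering insulin sensitivity in mice, had log2 values of 8.33, 8.45, 8.41 and 8.49 in tumors 1 to 4, and 8.59, 8.77 and 8.61 in neocortex 1 to 3. All tumors lay under all neocortex samples, but the change of -0.24 (SE 0.15) did not pass, at a limma adjusted p of 0.30. miR-107 differed by -0.20 (SE 0.17), with a limma adjusted p of 0.44. From the cluster of miR-322, miR-503 was listed in tumor 4 alone, at 3.09, the lowest value listed there. miR-450a-5p had 4.80, 5.13, 4.59 and 4.87 in tumors 1 to 4, and was at 5.42 in neocortex 1 and listed at 0 in neocortex 2 and 3. The cutoffs of neocortex 2 and 3 were 4.88 and 5.21. The values of tumors 1, 3 and 4 lay under the first and those of all 4 tumors under the second, so such levels would be listed at 0 there.

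Other miRNAs that act on the cell cycle were read from 2 lists. Of 20 further miRNAs known to restrain division, such as let-7 and miR-34 members, 1 was higher and 0 lower in limma (before adjustment, 2 and 1 at 0.05), with a median of -0.00080. As 8.13% of all tested miRNAs were called higher and 9.54% lower, that count is not a result about the list. The called one was miR-34a, a target of p53, at 1.11 (SE 0.29), with a limma adjusted p of 0.044. Of 9 tested probes for miRNAs known to promote division, 4 were higher and 0 lower (before adjustment, 7 and 0 at 0.05), where 8.13% of all tested miRNAs were called higher, and the median change was 0.87, against 0.03 for all tested miRNAs. They were miR-93, at 0.87, miR-19b, at 1.11, and the probes shared by miR-20a with miR-20b, at 1.14, and by miR-106a with miR-17, at 1.38. The change of miR-15b, 0.98, lay within the range of these 4. They were named because they were called, so this is not a result about miR-15b.

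The miRNAs with the pattern nearest to each member were found by the root mean square difference of log2 values, each centered on its own mean over the 7 samples, among the 196 other miRNAs above the cutoff in all 7. For miR-15b they were miR-451, at 0.23, and the shared miR-20a/miR-20b probe, at 0.26, where the median over all was 0.79. miR-451 had log2 values of 8.86, 8.13, 8.74 and 8.04 in tumors 1 to 4 and 7.95, 7.34 and 7.91 in neocortex 1 to 3, and its change of 0.71 (adjusted p = 0.15 in limma) did not pass. The part of red blood cells in the miR-15b values was not tested. For miR-16 the nearest were miR-26b, at 0.10, and miR-30b, at 0.17, and for miR-15a miR-193b, at 0.12, and miR-140, at 0.13. For miR-322 they were miR-26a, at 0.21, and let-7c, at 0.28, and for miR-497 miR-431, at 0.15, and miR-1935, at 0.17. No member had another member of its family among its nearest 2, which with 2 picks among 196 is not a result about the family.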

How the data were processed

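NanoString's nCounter panel for mouse miRNAs, version 1.3, was run on total RNA of 4 tumor and 3 neocortex samples, per the labels. The deposited values are log2 values with 1 column per sample; the sources used here do not give their normalization or software. Counts were recovered from the values: in each sample the fixed amount was chosen so that all 151 to 264 values of at most 60 counts came out whole. The tolerance was 0.02 counts plus an allowance for rounding that grew with the count. They served only to describe depth and precision.

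Tumor was compared with neocortex in limma 3.58.1 under R 4.3.3 (2-sided, with lmFit followed by eBayes) from the values as deposited, over the 283 of 566 miRNA probes whose mean reached the median of 2.80, with Benjamini-Hochberg adjustment over all 283. Within-sample differences were tested by an exact permutation test over the 35 arrangements of the samples, 2-sided on the absolute difference of means. The fit was tested on simulated data: it recovered the sizes and directions of the changes put in but left many of them uncalled, and its pass criterion was changed to sizes, directions and false calls after a first one, on the number called, was missed. Named miRNAs were the 6 members, listed relatives, called members of 2 cell cycle lists and the nearest 2 patterns. Members and lists were chosen with earlier results of these data known. Nothing says how the samples were collected beyond the labels, so p-values measure the spread between these samples. Alternatives covered filter, scaling, values listed at 0, pseudocount, background, variance model, sex, replicate number and leaving out each sample. The shared cutoff was 5.21; that 3 samples had to reach it was chosen after the data were seen.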

Additional observations from a re-analysis of the deposited data

Results flagged for a closer look

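Among 18 measures of the 4 tumor samples, 3 had a sample far from the others by Dixon's criterion; chance alone flags about 1 in 20 groups. All 3 are relatives of miR-322 near the cutoff, where a step to 0 is part of the listing. miR-503 was at 3.09 in tumor 4 and at 0 in the other tumors. miR-450b-5p was at 3.24 in tumor 2 and at 0 in the others. miR-542-3p was at 0 in tumor 1 and at 3.26 to 3.78 in the others. The 6 family members and the 3 tested differences had no such sample among the tumors, and 3 neocortex samples are too few for the criterion.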

How the results depend on the processing

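The gaps of miR-15b against miR-16 and miR-15a stayed called with a pseudocount (1.28 and 0.80) and with the negative controls subtracted (1.37 and 0.87). The shared cutoff lay under all values of miR-15a, miR-15b and miR-16, so it could not change these gaps. With 1 sample left out they ran from 1.21 to 1.51 against miR-16 and from 0.74 to 0.97 against miR-15a. There the exact test on 6 samples cannot pass. The limma call of miR-15b was kept in 12 of 20 alternatives; it was lost on the housekeeping probes (0.016), with sex (0.96), and in 5 of the fits leaving out a sample (0.78 to 1.12 over all 7). Over scalings, members changed as follows on the positive-control and the housekeeping probes: miR-15a 1.85 and -0.82, miR-16 1.37 and -1.30, miR-322 2.05 and -0.63, miR-497 1.25 and -1.43. miR-15a ran from -0.01 to 0.31 with a sample left out. miR-497, unchanged at -0.47, passed with no filter and could not be tested with the shared cutoff.

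Counts of all calls, higher and lower, were 23 and 27 as deposited and 67 higher with no filter, 41 lower among miRNAs above 0 in all samples, 230 and 0 on the positive controls in limma (234 and 0 before adjustment at 0.05), 8 and 136 on the housekeeping probes and 15 higher with sex. With a sample left out they ran from 13 to 32 higher (lowest without tumor 2 or tumor 3) and from 10 to 41 lower (lowest without tumor 2). The labels' replicate numbers do not state a pairing of the samples. The deviations of same-numbered samples correlated at -0.18, 0.25 and 0.13 across 197 miRNAs. Those of unlike-numbered samples correlated at -0.39 to 0.43, a range too wide for these values to settle whether samples are paired. With the replicate block limma called 5 and 0 (28 and 31 before adjustment at 0.05), and miR-15b, at 1.12, was not called. No neocortex sample is numbered 4, so in that fit tumor 4 does not enter the change. The miR-15b change was the same, 1.12, without tumor 4. The causes of these changes were not tested. Depth limits miR-195, miR-322 and miR-497 in neocortex.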
